A study of Mus musculus with 12 samples.

Results

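The genes described here are 10 members of the immediate-early response, the first set of genes that a cell transcribes after a growth factor, cytokine or stress signal: the zinc finger transcription factors Egr1, Egr2 and Egr3, the orphan nuclear receptors Nr4a1, Nr4a2 and Nr4a3, the immediate early response genes Ier2, Ier3 and Ier5, and Srf, which encodes serum response factor. They were found as all probe sets whose gene symbol, current or former, is 1 of these 10, a probe set being a group of short oligonucleotides on an Affymetrix mouse array that together read 1 transcript. This gave 22 of the 45101 probe sets in the table and 10 of the 18193 genes that had a probe set with a single symbol. Nr4a2 had 6 probe sets, Nr4a3 and Ier5 had 3 each, Egr2, Egr3 and Srf had 2 each, and Egr1, Nr4a1, Ier2 and Ier3 had 1 each. For each gene the probe set with the highest mean log2 signal over the arrays is called the main one.

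Whole liver RNA of male Balb/c mice aged 8 to 10 weeks was measured at 4 time points: a control group at 0 h, and groups sampled 1, 3 or 6 h after 20 mg/kg of concanavalin A (ConA) was injected into the tail vein, with 3 arrays in each group. ConA is a plant lectin that activates T cells and is used to model immune-mediated fulminant hepatitis, and the study asked which genes move at its very early stage. The labels call the 0 h mice untreated, whereas the study's methods state that controls received PBS. No control was taken at 1 h, 3 h or 6 h, so ConA and time of day cannot be told apart, and in whole liver a change in the number of cells of a type and a change in RNA per cell cannot be told apart either.

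EGR proteins bind GC-rich sites through their zinc fingers and are held in check by the NAB corepressors, which they induce themselves. NR4A proteins bind DNA without a classical activating ligand, so their activity follows mainly from how much of them is made; in hepatocytes they are induced by cAMP signalling and take part in the control of gluconeogenesis, and in T cells both families respond to the antigen receptor. Serum response factor sits on CArG boxes in the promoters of many immediate-early genes and works with ternary complex factors that respond to ERK, or with myocardin-related factors that respond to actin.

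The letters of the promoters are shown for the genes that hold CArG boxes or the core TGACG of the cAMP response element, since those are the elements through which the immediate-early response is best known. Sequences came from the RefSeq promoter table, build GRCm38.p6, which held 11 starts of 7 of the genes (Egr2, Nr4a1, Nr4a2, Nr4a3, Ier3, Ier5 and Srf), and the 250 bases before each start were searched on both strands. Capitals mark the motif, and each line is 30 bases read 5′ to 3′ on the gene's strand.
Srf, CArG boxes, chr17:46556215-46556244, minus strand: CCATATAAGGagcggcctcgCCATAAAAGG
Egr2, CArG box, chr10:67537787-67537816, plus strand: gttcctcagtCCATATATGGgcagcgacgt
Egr2, CArG box, chr10:67537484-67537513, plus strand: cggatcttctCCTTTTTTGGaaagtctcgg
Nr4a1, TGACG cores, chr15:101266611-101266640, plus strand: tgCGTCAatggaaccccgcgtgCGTCAcgc
Nr4a2, TGACG cores, chr2:57124120-57124149, minus strand: cgCGTCAcggagcccggccgggcTGACGgg
Nr4a3, TGACG cores, chr4:48045088-48045117, plus strand: atgtCGTCAcatTGACGtctcgcattccag

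The CArG box was present in Egr2 and Srf, 2 of the 7 genes, against 1.47% of 32851 promoters of the same length. Srf carried 2 of them, the first beginning at base -82 from its start. The core TGACG was present in 5 of the 7 genes (Egr2, Nr4a1, Nr4a2, Nr4a3 and Srf), against 17.8% of all promoters, and each of the Nr4a promoters held 4 copies. The full element TGACGTCA, which contains the core, was found in 0 of the 7 genes and in 1.55% of promoters. The EGR site GCGNGGGCG was found in 3 of the 7 (Nr4a1, Nr4a2 and Srf) against 4.7%, the ETS site CCGGAA in 3 (Egr2, Nr4a1 and Srf) against 12%, the TATA box TATAAA in 2 (Nr4a2 and Srf) against 12.4%, and the NR4A site AAAGGTCA in 0 against 1.34%. Ier3 and Ier5 held none of these letters in the window. The counts of members are of genes with a match at any start, whereas the shares are of single starts. By starts, the CArG box was in 5 of 11 and the core TGACG in 7 of 11. Several of the 5 windows of Egr2 share bases, and a match is a description of letters, not a bound site.

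Signals were linear and were used without new scaling. The median signal of an array lay between 13.68 and 20.41, between 17.44 and 23.13% of an array's probe sets were at or under the floor of 3.044 to which low values were raised before log2 was taken, and the highest correlation of any array with another was 0.9621 to 0.9646. The arrays at 3 h were dimmer than the others: the median log2 change of all probe sets from control was 0.07 at 1 h, -0.18 at 3 h and 0.04 at 6 h, and it was 0.00, -0.01 and 0.00 after quantile normalization. Changes at 3 h should be read against that shift, and where rescaling alters the call of a member against control, or ends that of another named gene, this is stated beside it. The labels speak of liver from each mouse and name no shared batch, and p-values measure the spread between these arrays.

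Most of the genes rose at every time. On their main probe sets 8 of 10 genes rose and 0 fell by 1 h, 7 rose and 1 fell by 3 h, and 9 rose and 0 fell by 6 h, by limma with adjusted p under 0.05. Over the main probe sets of all genes, 1.45% rose and 0.148% fell by 1 h, 4.76% rose and 12.9% fell by 3 h, and 14.4% rose and 11.8% fell by 6 h. The median log2 change of the 10 genes was 3.27 at 1 h, 2.39 at 3 h and 2.40 at 6 h, against 0.08, -0.21 and 0.02 over all genes. Main probe sets were picked over all arrays, those after ConA included, so a rise makes a probe set likelier to be picked. On the control arrays alone, the other Egr3 probe set (1421486_at) had a higher mean log2 signal, 4.64 against 2.00. The same held for Nr4a3 (1421080_at, 2.85 against 1.63) and Egr2 (1427683_at, 2.62 against 2.23). Of these, only that of Egr2 was called higher against control. Of all 22 probe sets, 10 rose and 0 fell by 1 h, 9 rose and 1 fell by 3 h, and 13 rose and 0 fell by 6 h. Among all 45037 probe sets tested, 1.29% rose and 0.255% fell by 1 h, 3.77% rose and 9.83% fell by 3 h, and 12% rose and 8.37% fell by 6 h. Of the calls over all probe sets, the share that rose was 83.4% by 1 h, 27.7% by 3 h and 59% by 6 h as deposited, and 70.7%, 50.6% and 47.6% after quantile normalization.

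**Figure D1:**
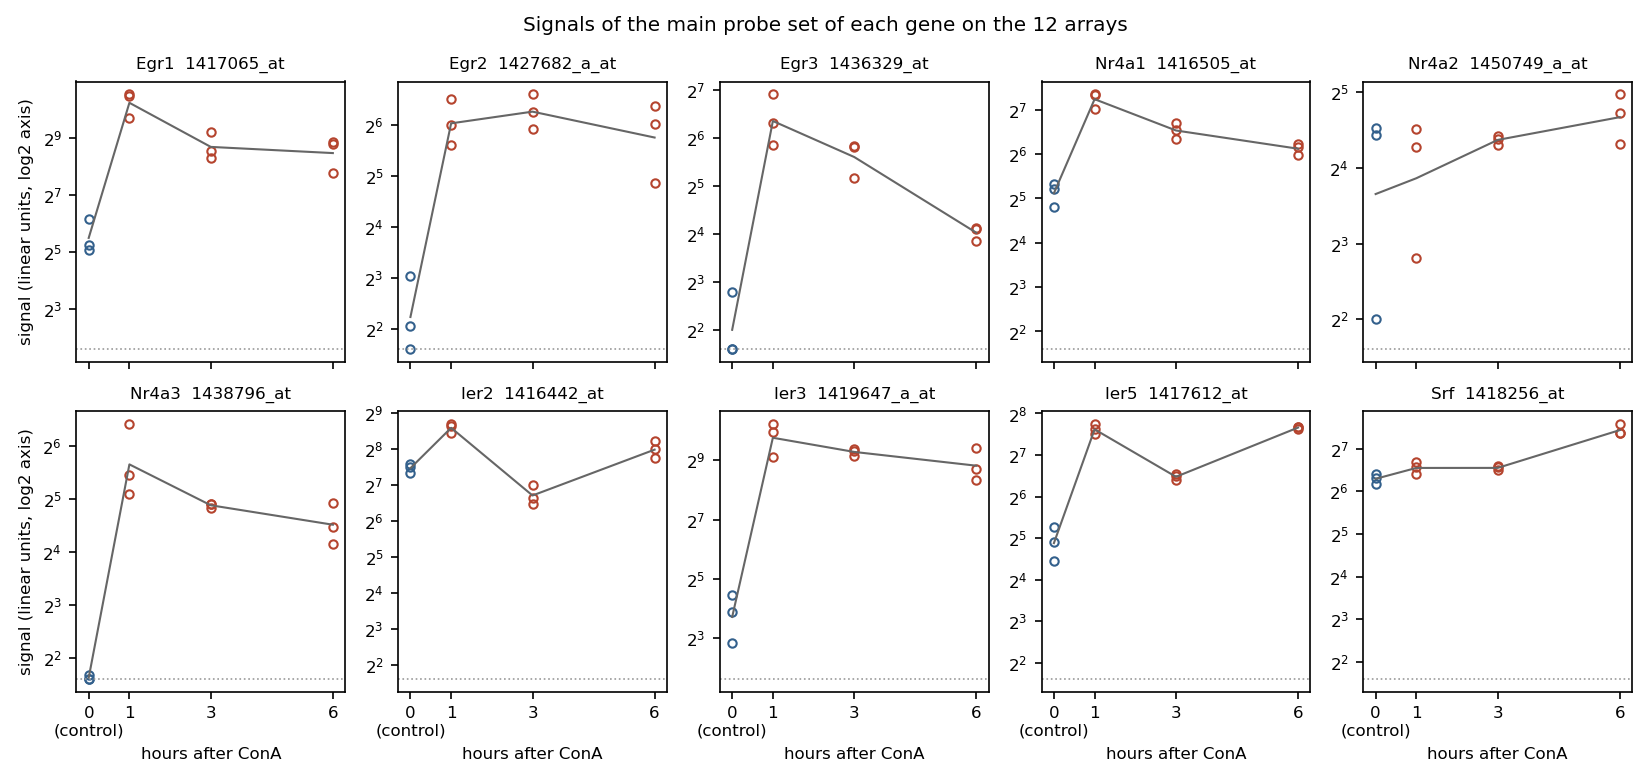
Signal (linear units on a log2 axis) of the main probe set of each of the 10 genes against hours after ConA, with 3 arrays per time; circles are arrays (blue for control, red after ConA), the line joins the means of log2 signals and the dotted line is the floor of 3.044. Egr1, Egr3, Nr4a1 and Nr4a3 stood highest at 1 h, Ier2 and Ier5 dipped at 3 h, and Srf stood highest at 6 h.

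Egr1, the founding member of its family, was among the strongest early responders of the whole array. The signals of its only probe set (1417065_at) were 38.3, 72.1 and 33.4 on the control arrays, 1482, 1425 and 827 after 1 h, 317, 378 and 586 after 3 h, and 216, 467 and 443 after 6 h. All arrays after ConA lay above all control arrays, the 1 h arrays lay above all others, and the 3 h and 6 h arrays overlapped. The log2 change was 4.74 at 1 h (SE 0.42, adjusted p = 6.06e-04, limma), a 26.6-fold rise that ranked 17 among all probe sets. The later changes were 3.19 after 3 h (adjusted p = 0.00137) and 2.97 after 6 h (adjusted p = 0.00103). Replicate 3 at 1 h was the lowest of its group, and the calls against control held without any 1 array.

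Egr2, which in T cells is tied to restraint of the response as well as to activation, was high at all 3 times after ConA. On its main probe set (1427682_a_at) the signals were 4.16, 0.224 and 8.21 on the control arrays, 63.9, 91.0 and 48.6 after 1 h, 61.0, 97.6 and 76.7 after 3 h, and 83.1, 29.2 and 65.3 after 6 h. The arrays after ConA were all above the control arrays, and the 3 times overlapped with each other. The log2 changes were 3.80 (SE 0.47, adjusted p = 0.00431, limma), 4.03 (adjusted p = 7.38e-04) and 3.52 (adjusted p = 7.84e-04) at 1, 3 and 6 h. The second probe set (1427683_at) read 11.8, 6.51 and 2.16 on the control arrays, 59.1, 65.2 and 49.8 after 1 h, 50.6, 64.1 and 59.5 after 3 h, and 54.4, 63.4 and 65.6 after 6 h. It gave log2 changes of 3.23, 3.23 and 3.31, all past the threshold, and both probe sets stayed high to 6 h. Each probe set had 1 control array at the floor, and both 1 h calls were lost when only the control and 1 h arrays were fitted (adjusted p = 0.0669 and 0.126).

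Egr3, a close relative of Egr2 that is also induced by the T cell receptor, rose and fell back on its main probe set, furthest of the Egr genes. Its main probe set (1436329_at) read 0.53, 0.464 and 6.97 on the control arrays, 78.9, 120 and 57.4 after 1 h, 35.8, 56.6 and 56.5 after 3 h, and 17.2, 17.3 and 14.5 after 6 h. The 4 groups did not overlap at any point, in the order 1 h, 3 h, 6 h and control. The log2 changes were 4.35 (SE 0.37, adjusted p = 5.14e-04, limma), 3.60 (adjusted p = 3.92e-04) and 2.02 (adjusted p = 0.00442) at 1, 3 and 6 h, and the call at 1 h was lost when only the control and 1 h arrays were fitted (adjusted p = 0.0517). With 2 of the 3 control arrays at the floor, the size of these changes depends on it, and with a floor at the 40th percentile (10.4) the change at 6 h was 0.65 and was not called (adjusted p = 0.144). The second probe set of Egr3 (1421486_at) went the other way: it read 24.5, 26.1 and 24.1 on the control arrays, 4.58, 11.9 and 4.06 after 1 h, 14.2, 31.5 and 26.7 after 3 h, and 19.2, 27.3 and 17.4 after 6 h. All 3 arrays at 1 h lay below all control arrays, with a log2 change of -2.04 that missed the threshold (adjusted p = 0.0563) and passed it in 6 of 21 alternatives, among them both rescalings. The probe sets of Egr3 thus disagreed at 1 h, and which transcript the second one reads was not tested.

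Nr4a1, an orphan receptor induced by antigen receptor signals in T cells and by cAMP in hepatocytes, rose at 1 h and declined slowly. The signals of its only probe set (1416505_at) were 40.4, 37.4 and 27.8 on the control arrays, 162, 163 and 130 after 1 h, 81.4, 93.0 and 105 after 3 h, and 71.6, 62.9 and 75.0 after 6 h. No group overlapped with another. It was 4.35-fold higher at 1 h, a log2 change of 2.12 (SE 0.17, adjusted p = 2.67e-04, limma), and 1.41 (adjusted p = 7.51e-04) and 1.00 (adjusted p = 0.00245) on the log2 scale at 3 h and 6 h.

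Nr4a3 had the larger change of the receptors. Its main probe set (1438796_at) read 1.46, 1.13 and 3.19 on the control arrays, 43.8, 84.7 and 34.0 after 1 h, 29.8, 30 and 28.4 after 3 h, and 30.4, 17.7 and 22 after 6 h. The arrays at 1 h lay above those at 3 h and 6 h, which overlapped, and all lay above the control arrays. The log2 changes were 4.02 (SE 0.31, adjusted p = 2.37e-04, limma), 3.25 (adjusted p = 2.35e-04) and 2.88 (adjusted p = 2.33e-04) at 1, 3 and 6 h. Since 2 of the 3 control arrays were at the floor, the changes depend on it, and they were between 2.27 and 4.30 at 1 h over 22 alternatives, all past the threshold. The other probe sets of Nr4a3 were dim and did not show it: 1421080_at read 5.57 to 11.6 at 1 h against 5.25 to 11.2 on the control arrays, and 1421079_at was at the floor on all 3 control arrays and on 1 of the 3 arrays at 1 h. Their log2 changes ranged from 0.00 to 0.74 over the 3 times, and none was called.

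Nr4a2, the third receptor of the family, had no probe set past the threshold at any time. The main probe set (1450749_a_at) read 21.7, 3.99 and 23.0 on the control arrays, 19.4, 6.98 and 22.8 after 1 h, 20.8, 21.5 and 19.8 after 3 h, and 26.5, 31.5 and 19.9 after 6 h. Its groups overlapped, and replicate 2 was far below the others both at 1 h and in the control group. The log2 change at 1 h was 0.21 with a 95% interval from -1.30 to 1.72 (adjusted p = 0.976, limma). A steadier probe set (1450750_a_at) read 8.69, 9.72 and 6.50 on the control arrays, 15.1, 18.7 and 13.8 after 1 h, 13.5, 11.2 and 15.5 after 3 h, and 11.4, 14.2 and 8.60 after 6 h. The arrays at 1 h and 3 h were all above the control arrays, with log2 changes of 0.94 (adjusted p = 0.0944) and 0.70 (adjusted p = 0.0759), and the change at 3 h passed after quantile normalization (0.94, adjusted p = 0.0133) and centring (0.93, adjusted p = 0.0157). Of the remaining probe sets, 1455034_at, 1433422_at and 1447863_s_at had all 3 arrays at 1 h above the control arrays, with log2 changes of 1.17, 1.50 and 1.27 that were not called, and 1433423_at overlapped throughout. Of 20 alternatives, the 1 h change passed the threshold in 1 for 1455034_at, in 2 for 1433422_at and in 0 for 1447863_s_at.

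**Figure D2:**
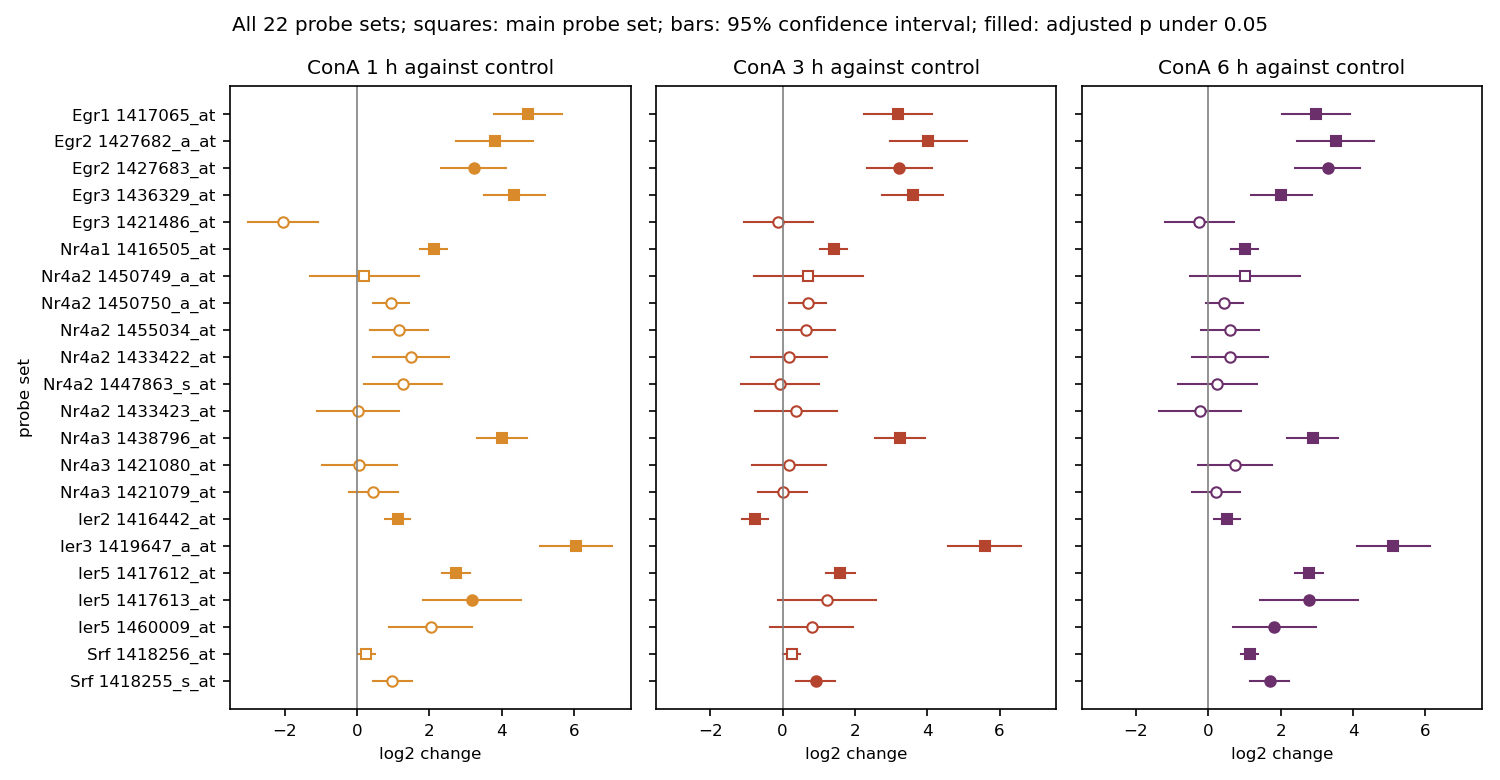
Log2 change against control (horizontal axis, bars for 95% confidence intervals) of each of the 22 probe sets at 1, 3 and 6 h after ConA, with 3 arrays per group; squares are main probe sets, circles the others, and filled symbols passed adjusted p 0.05. Both Egr2 probe sets lay near 3 to 4 at all times, the 2 Egr3 probe sets lay on opposite sides of 0 at 1 h, and no Nr4a2 symbol is filled.

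Ier3, a short-lived membrane protein that alters survival and NF-kB signalling, had the largest change of the 10 genes. The signals of its probe set (1419647_a_at) were 14.5, 21.7 and 7.05 on the control arrays, 994, 1197 and 556 after 1 h, 646, 567 and 666 after 3 h, and 326, 415 and 685 after 6 h. The arrays after ConA were all above the control arrays and overlapped between times. At 1 h it was 66.9-fold higher, a log2 change of 6.06 that ranked 3 of all probe sets (SE 0.44, adjusted p = 1.87e-04, limma). At 3 h and 6 h the log2 changes were 5.58 (adjusted p = 8.78e-05) and 5.12 (adjusted p = 7.84e-05), and all 3 calls held under every alternative.

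Ier2, a nuclear protein that shares an amino-terminal domain with the product of Ier5, rose modestly at 1 h, stood below control at 3 h and above it again at 6 h. Its signals (1416442_at) were 192, 180 and 162 on the control arrays, 414, 400 and 349 after 1 h, 89.8, 101 and 127 after 3 h, and 216, 297 and 255 after 6 h. None of the 4 groups overlapped with another. The log2 change was 1.12 at 1 h (SE 0.16, adjusted p = 0.00930, limma), and at 3 h it was -0.76, or 1.69-fold lower (adjusted p = 0.0135). After quantile normalization the change at 3 h was -0.56 (adjusted p = 0.0306), and with arrays centred on their medians it was -0.52 and no longer called (adjusted p = 0.0714). The value at 6 h was 0.52 (adjusted p = 0.0487), a call that was lost in 15 of 22 alternatives. Among them were quantile normalization (0.41, adjusted p = 0.0681) and centring (0.36, adjusted p = 0.152).

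Ier5, which is induced by heat and radiation and takes part in the heat shock response, was high at 1 h and 6 h and lower between. The main probe set (1417612_at) read 38.6, 30.2 and 21.8 on the control arrays, 196, 214 and 181 after 1 h, 84.1, 92.4 and 90.7 after 3 h, and 205, 203 and 198 after 6 h. The arrays at 3 h lay between those of the control group and those at 1 h and 6 h, with no overlap. The log2 changes were 2.74 (SE 0.18, adjusted p = 9.19e-05, limma), 1.60 (adjusted p = 5.53e-04) and 2.78 (adjusted p = 1.58e-05) at 1, 3 and 6 h. A second probe set (1417613_at) was at the floor on all 3 control arrays and read 17.8, 50.9 and 23.7 after 1 h, 2.42, 7.35 and 16.4 after 3 h, and 20.6, 14.1 and 32.2 after 6 h, which was 9.14-fold over the floor after 1 h (adjusted p = 0.0369) and 6.92-fold over it after 6 h (adjusted p = 0.00966). These folds follow the floor: with that at the 40th percentile the log2 changes were 1.42 and 1.02 and neither was called (adjusted p = 0.208 and 0.142). The third (1460009_at) had a log2 change of 2.04 after 1 h, which missed the threshold (adjusted p = 0.107), and was 1.83 higher after 6 h (adjusted p = 0.0315). That 6 h call was lost in 8 of 20 alternatives, among them quantile normalization (adjusted p = 0.0600). All 3 probe sets had their lowest mean after ConA at 3 h. The 1 h call of 1417613_at was lost in 14 of 20 alternatives, among them quantile normalization (adjusted p = 0.0673).

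Srf, the factor that occupies CArG boxes in immediate-early promoters and also has CArG boxes of its own (printed above), moved last. Its main probe set (1418256_at) read 71.5, 84.1 and 80.0 on the control arrays, 94.6, 102 and 84.3 after 1 h, 94.6, 96.1 and 90.1 after 3 h, and 190, 165 and 164 after 6 h. The arrays at 6 h were above all others, and those at 1 h and 3 h overlapped and lay just above the control arrays. The log2 changes of 0.25 (adjusted p = 0.368) at 1 h and 0.26 (adjusted p = 0.144) at 3 h were not called, whereas the change of 1.14 at 6 h was (SE 0.10, adjusted p = 9.66e-05, limma). At 3 h the change was 0.47 after quantile normalization and 0.49 after centring, both past the threshold (adjusted p = 0.0252 and 0.0450). The second probe set (1418255_s_at, whose suffix marks probes that may read more than 1 transcript) read 20.4, 16.0 and 28.8 on the control arrays, 46.7, 31.0 and 49.5 after 1 h, 38.4, 41.7 and 38.9 after 3 h, and 64.7, 80.6 and 61.8 after 6 h. All arrays after ConA were above the control arrays, with log2 changes of 0.98 (adjusted p = 0.0998), 0.91 (adjusted p = 0.0347) and 1.70 (adjusted p = 0.00101) at 1, 3 and 6 h, and the call at 3 h was lost in 10 of 21 alternatives.

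The times after ConA were then set against each other. From 1 h to 3 h, 4 main probe sets were lower and 0 higher: Egr1 by -1.55 (adjusted p = 0.0380, limma), Nr4a1 by -0.71 (adjusted p = 0.0226), Ier2 by -1.88 (adjusted p = 2.72e-04) and Ier5 by -1.14 (adjusted p = 0.00419) on the log2 scale. Over the 22 probe sets 4 were lower and 1 higher, the second probe set of Egr3 (1.92, adjusted p = 0.0183). Of all probe sets 12.8% were lower and 2.09% higher in this comparison, so the share of the 22 probe sets was near that background. Of the main probe sets of all 18193 genes, 3036 were lower and 496 higher, beside 4 and 0 of the 10 members. The dimmer arrays at 3 h bear on it: 14% of all calls were higher as deposited, and 53.3% after quantile normalization. The differences of Ier2 and Ier5 were still called after that normalization (-1.54, adjusted p = 2.68e-04, and -0.79, adjusted p = 0.0185), and those of Egr1 and Nr4a1 were not (-1.25, adjusted p = 0.0944, and -0.35, adjusted p = 0.242). Those of Egr3 (-0.75, adjusted p = 0.218), Nr4a3 (-0.77, adjusted p = 0.128) and Ier3 (-0.48, adjusted p = 0.535) were not called as deposited.

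At 6 h against 3 h, Egr3 fell by 1.58 log2 units (adjusted p = 0.0202, limma), while Ier2 rose by 1.28 (adjusted p = 0.00163), Ier5 by 1.19 (adjusted p = 0.00302) and Srf by 0.88 (adjusted p = 0.00128). These were 3 probe sets higher and 1 lower of the 22, beside 14.3% and 2.42% of all probe sets. Of all calls 85.5% were higher as deposited and 49.3% after quantile normalization, under which all 4 of these calls held and Nr4a1 was also lower (-0.77, adjusted p = 0.0112). The fall of Egr3 was lost without replicate 2 or 3 at 3 h and without replicate 2 or 3 at 6 h.

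Between 6 h and 1 h the scaling mattered little, with 46.9% of all calls higher as deposited and 47.6% after quantile normalization. On its main probe set Egr3 was 5.02-fold lower at 6 h than at 1 h, a log2 difference of -2.33 (SE 0.37, adjusted p = 0.00272, limma). The second probe set of Egr3 (1421486_at) went the other way and was 1.79 higher at 6 h (adjusted p = 0.0185), a call lost in 5 of 21 alternatives. Egr1 differed by -1.76 (adjusted p = 0.0183), Nr4a1 by -1.12 (adjusted p = 0.00181), Nr4a3 by -1.14 (adjusted p = 0.0324) and Ier2 by -0.61 (adjusted p = 0.0283). Of 22 alternatives, 4 lost the call of Egr1, 6 that of Nr4a3 and 8 that of Ier2. The calls of Nr4a1 and of the main probe set of Egr3 were lost in 0. Srf was the only main probe set higher at 6 h than at 1 h (0.89, adjusted p = 5.33e-04). The 95% intervals of the other differences were -1.34 to 0.78 for Egr2, -1.95 to 0.06 for Ier3 and -0.35 to 0.44 for Ier5. For Nr4a2 the interval was -0.70 to 2.32. Of the 22 probe sets 5 were lower and 2 higher, against 9.08% and 8.02% of all probe sets. Without replicate 1 at 1 h the count of lower probe sets was 2.

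**Figure D3:**
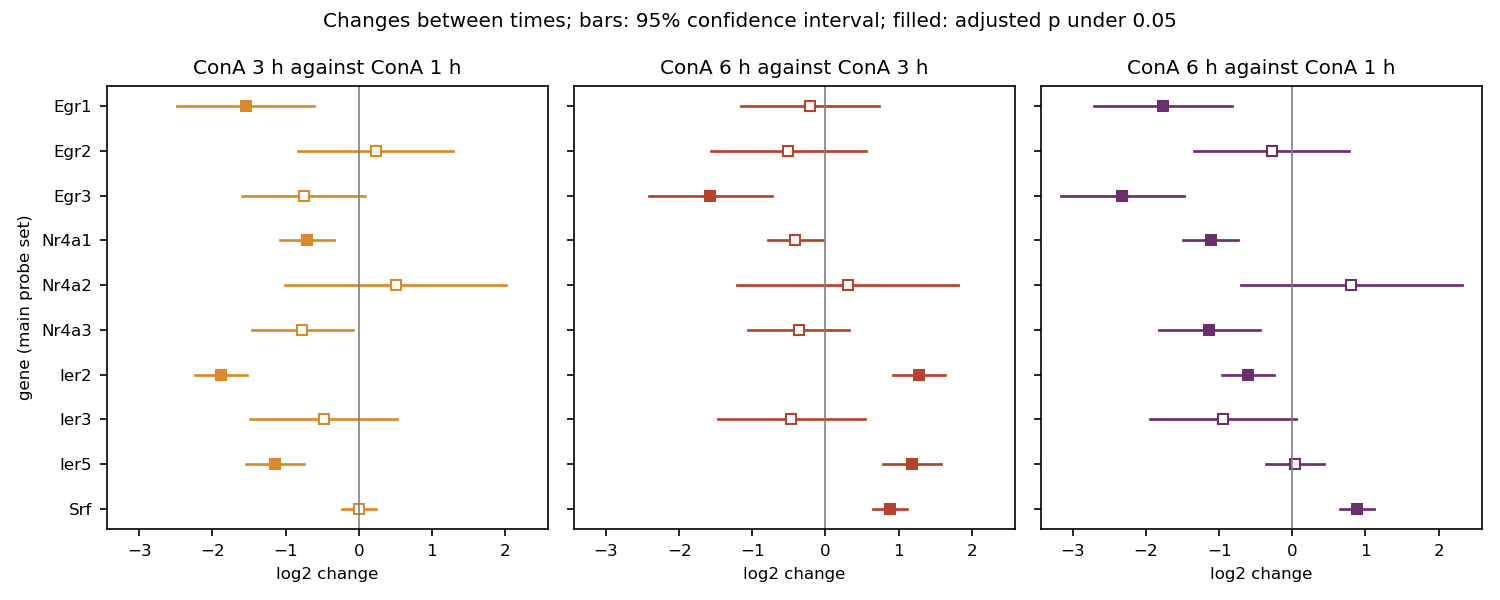
Log2 change of the main probe set of each gene (horizontal axis, bars for 95% confidence intervals) for 3 h over 1 h, 6 h over 3 h and 6 h over 1 h after ConA, with 3 arrays per time; filled squares passed adjusted p 0.05. Ier2 and Ier5 crossed 0 between the first and second panels, and Srf was to the right of 0 in both panels with 6 h.

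By the fitted means of their main probe sets, 9 of the 10 genes held 4 courses, and Nr4a2, with no called change, was in none. The courses were high at 1 h and lower at 6 h (Egr1, Egr3, Nr4a1, Nr4a3), high at all times with no called difference between them (Egr2, Ier3), a dip at 3 h (Ier2, Ier5), and a rise at 6 h (Srf). The second probe set of Egr3 was instead lowest at 1 h. Likeness was measured as the root mean square difference of the log2 changes at 1, 3 and 6 h. The smallest distance between members was that of Nr4a2 and Srf (0.28), whose changes were small. Among the strongly changed genes, Egr1 and Nr4a3 were closest (0.42), then Egr3 and Nr4a3 (0.57) and Egr2 and Nr4a3 (0.60).

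Among 5741 other genes past the threshold at some time, Egr3 was nearest to Il1b (0.15), an inflammatory cytokine, and Egr2 to Sele (0.17), the endothelial selectin. Nr4a1 was nearest to Nlrp3 (0.19), an inflammasome sensor, Nr4a3 to Junb (0.22) and Jun (0.28), which encode parts of AP-1, and Egr1 to the chemokine Ccl3 (0.37) and Junb (0.39). Ier5 lay beside the chemokine Cxcl3 (0.15), Ier3 beside the NF-kB inhibitors and feedback genes Tnfaip3 (0.43) and Socs3 (0.53), and Ier2 beside Gin1 (0.20) and Alas1 (0.23), the first enzyme of heme synthesis. Many genes had small changes, so the neighbours of Srf (Prpf31 at 0.02, Qsox1 at 0.04) and Nr4a2 (Hspa14 at 0.02) were closer than those of the strongly changed genes. These distances compare 3 changes that share 1 control group and are a description.

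Genes that work with the members were followed from lists. Of the 4 Egr partners measured, 0 were called at 1 h, 1 was lower at 3 h and 2 were higher at 6 h (median log2 change 0.13, 0.10 and 0.97). Nab2, the corepressor that EGR proteins induce, stood at -0.19 on the log2 scale after 1 h (adjusted p = 0.842, limma) and was 4.01-fold lower at 3 h (adjusted p = 9.54e-04), and at 6 h its paralog Nab1 (0.38, adjusted p = 0.0430) and Wt1 (1.64, adjusted p = 0.0431) were higher. Of 6 measured Nr4a partners and co-regulators of 8 listed, 1 was higher and 2 lower at 3 h, and 1 was lower at 6 h. The small heterodimer partner Nr0b2, a corepressor, fell by 3.25 at 3 h (adjusted p = 0.00220), the retinoid receptor Rxra by 0.61 at 3 h (adjusted p = 0.00920) and Rxrg by 1.20 at 6 h (adjusted p = 0.0360), whereas Nr5a2 was 0.73 higher at 3 h (adjusted p = 0.0147). None of the Egr or Nr4a partners was called at 1 h, when 1.45% of all genes rose and 0.148% fell. By 3 h 4.76% of all genes rose and 12.9% fell, and by 6 h 14.4% rose and 11.8% fell. Counts this small in lists this short are a description. Rxra at 3 h was not called after centring (-0.38, adjusted p = 0.103), nor were Nab1 at 6 h after centring (0.23, adjusted p = 0.170) and Wt1 after quantile normalization (1.51, adjusted p = 0.0545).

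The 6 cofactors of serum response factor divided. Mrtfa, the actin-sensing coactivator, was higher at 3 h (log2 change 1.78, adjusted p = 1.13e-04, limma) and at 6 h (1.87, adjusted p = 4.94e-05), while Elk3, a ternary complex factor that can repress, was lower at both times (-2.31, adjusted p = 0.00272, and -1.88, adjusted p = 0.00430). Mrtfb was lower at 3 h (-0.86, adjusted p = 0.0128), but not called after centring (-0.62, adjusted p = 0.0682). That made 1 that rose and 2 that fell by 3 h, and 1 of each by 6 h. Over all genes, 4.76% rose and 12.9% fell by 3 h. Of 20 actin and contractile genes that serum response factor is known to control, 0 were called at 1 h, 2 rose by 3 h, and 7 rose and 1 fell by 6 h, beside 14.4% of all genes that rose and 11.8% that fell by 6 h. Tpm4, a tropomyosin, was 2.14 higher at 6 h (adjusted p = 4.54e-05), and Actg1, cytoplasmic actin, 2.12 higher (adjusted p = 2.56e-04). Myl9, a smooth muscle light chain, had a log2 change of -2.05 (adjusted p = 0.0132). The median of the list was only 0.16 at 6 h.

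Upstream, genes of the RAS-RAF-ERK cascade (11 measured of 18) were not called at 1 h, 1 rose and 1 fell by 3 h, and 3 rose by 6 h: the adaptor Grb2 (1.37, adjusted p = 7.16e-05, limma), Nras (1.22, adjusted p = 2.04e-04) and the kinase Rps6ka3 (0.89, adjusted p = 0.0127). Of 8 CREB and CRTC factors of 9 listed, 0 were called at 1 h, 2 fell by 3 h, and 3 rose and 1 fell by 6 h, with the coactivator Crtc3 at 1.43 (adjusted p = 6.12e-05) and Crem at 1.38 (adjusted p = 0.00225). Creb3l3, a liver factor anchored in the endoplasmic reticulum, was lower at 6 h (-0.78, adjusted p = 0.00236). Since 12.9% of all genes fell by 3 h, and 14.4% rose and 11.8% fell by 6 h, counts this small in lists this short are a description. After either rescaling 0 of the 8 CREB and CRTC factors were lower at 3 h and 2 were higher. Of the 11 cascade genes, 1 was higher and 0 lower at 3 h after centring, and 3 and 0 after quantile normalization. At 6 h, 3 of them were higher and 2 lower after centring, and 4 and 3 after quantile normalization. RNA levels say nothing of the phosphorylation by which these proteins act.

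Many of the other immediate-early genes also rose. Of 42 measured, 20 rose by 1 h, 22 rose and 2 fell by 3 h, and 24 rose by 6 h, with medians of 1.26, 1.13 and 1.05. Over all genes, 1.45% rose by 1 h, 4.76% rose and 12.9% fell by 3 h, and 14.4% rose by 6 h. Gadd45b, a stress response gene, rose by 6.02, 3.57 and 4.10 on the log2 scale at 1, 3 and 6 h (all adjusted p under 0.05 by limma), and Fos, a part of AP-1, by 6.00, 4.46 and 3.78. Atf3, a stress factor of the same leucine zipper class, was highest at 3 h, with changes of 3.71, 5.51 and 4.59, and Arid5a, which stabilises cytokine RNA, followed the same order with 3.24, 5.36 and 4.95. The 2 lower at 3 h were Rgs2 (-1.80) and the clock gene Per1 (-0.75), named after their values were seen, and Per1 was not called after quantile normalization (-0.51, adjusted p = 0.131).

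Genes reported to hold EGR1 sites in their promoters, 11 measured of 14, included 3 that rose by 1 h, 5 that rose and 1 that fell by 3 h, and 6 that rose by 6 h (medians 0.52, 1.66 and 1.85). Over all genes, 1.45% rose by 1 h, 4.76% rose and 12.9% fell by 3 h, and 14.4% rose by 6 h. After either rescaling 7 of the 11 rose and 0 fell by 3 h. Icam1, the adhesion molecule for leukocytes, had log2 changes of 4.27, 5.28 and 4.02 at 1, 3 and 6 h (adjusted p = 5.12e-07 at 1 h, limma). Cdkn1a, which encodes the cell cycle inhibitor p21, rose by 2.73 after 3 h (adjusted p = 0.00488) and by 5.51 after 6 h (adjusted p = 6.39e-05). Tnf was at the floor on all 3 control arrays and was called higher at all 3 times (adjusted p = 0.0145, 0.00304 and 0.0103), and Cd44, the third gene called at 1 h and named after its value was seen, had a change of 0.78 (adjusted p = 0.0115). Many other factors act on these promoters, and the part of EGR1 was not tested.

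Gluconeogenesis genes, which NR4A receptors activate in hepatocytes, were followed too, and the part of those receptors was not tested. Of 7 measured, 0 were called at 1 h, 2 were lower at 3 h and 4 lower at 6 h, with medians of 0.53, -0.56 and -0.76. None was called higher at any time. Of all genes, 1.45% rose by 1 h, 12.9% fell by 3 h and 11.8% fell by 6 h. G6pc, glucose-6-phosphatase, stood at 0.72 on the log2 scale after 1 h (adjusted p = 0.842, limma), and fell by 7.17 at 3 h (adjusted p = 0.00133) and by 4.70 at 6 h (adjusted p = 0.00649). Ppargc1a, a coactivator of the fasting response, was lower by -1.81 at 3 h (adjusted p = 0.00310) and by -3.27 at 6 h (adjusted p = 6.94e-05), and Slc2a2, the glucose transporter of hepatocytes, was lower at 6 h (-2.24, adjusted p = 4.57e-05). By the study's methods the mice could eat freely.

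Of 18 genes tied to Egr and Nr4a factors in activated T cells, 2 rose by 1 h, 5 rose and 1 fell by 3 h, and 6 rose and 2 fell by 6 h. Over all genes, 1.45% rose by 1 h, 4.76% rose and 12.9% fell by 3 h, and 14.4% rose and 11.8% fell by 6 h. As deposited the falls were no more frequent than over all genes, and 3 fell by 6 h after either rescaling. Cd69, an early activation antigen, had log2 changes of 3.41, 4.08 and 3.97 at 1, 3 and 6 h (adjusted p = 1.68e-04 at 1 h, limma), and Ifng, which encodes interferon gamma, of 3.41, 4.61 and 4.70, each with 2 control arrays at the floor. Il2 was at the floor on all 3 control arrays and was called higher at 3 h (adjusted p = 0.00290) and 6 h (adjusted p = 5.48e-04). Tnfrsf9, a costimulatory receptor, was higher at 3 h (2.13) and 6 h (3.76). Cd69 ranked 2 among the genes nearest to Egr2 (distance 0.34), after Sele (0.17) and before Clec4d (0.40).

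**Figure D4:**
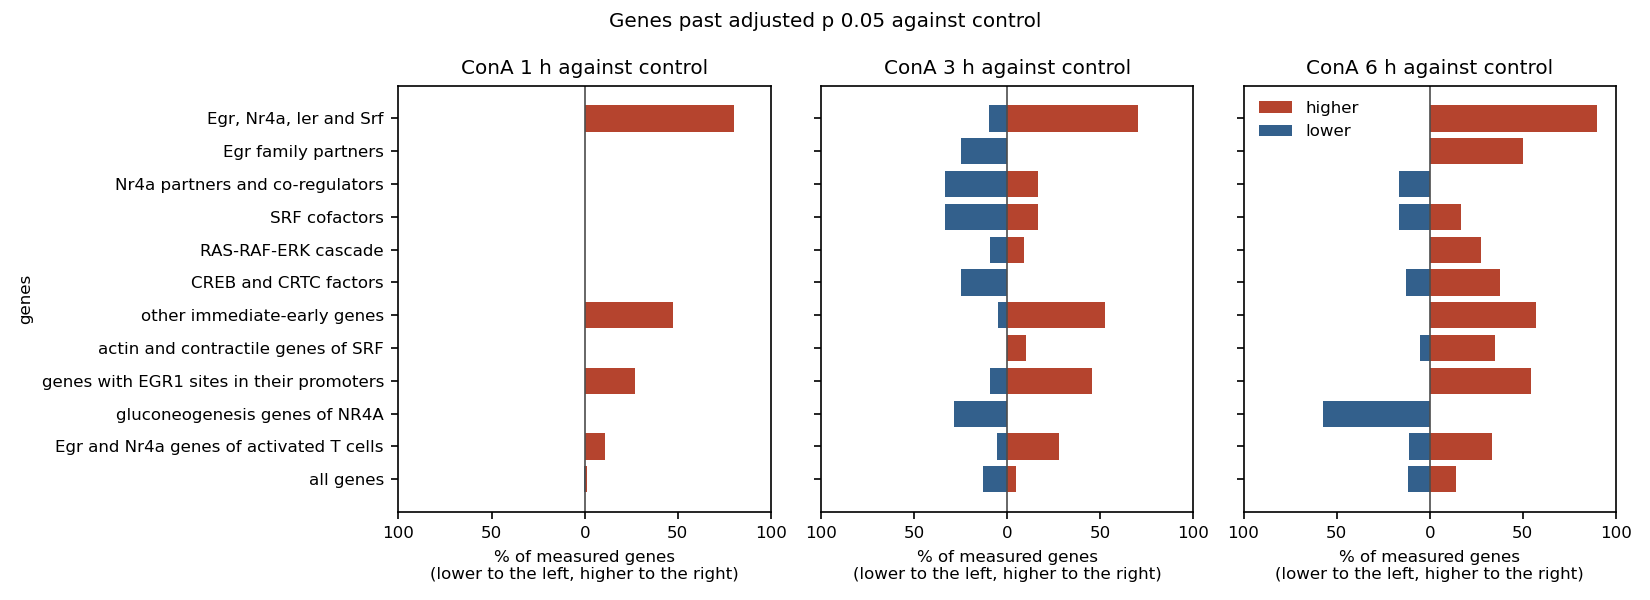
Share of measured genes past adjusted p 0.05 against control (horizontal axis, percent; lower to the left in blue, higher to the right in red) at 1, 3 and 6 h for the 10 genes, 10 lists of related genes and all genes. At 1 h the lists with called genes were the 10 genes, the other immediate-early genes, the genes with EGR1 sites and the genes of activated T cells, all on the higher side, while the gluconeogenesis list lies on the lower side at 3 h and 6 h.

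Markers of the cells that whole liver holds were followed beside these genes. The summed signal of 10 hepatocyte markers was 78590 to 85190 on the control arrays, 81790 to 88410 at 1 h, 75820 to 77150 at 3 h and 78820 to 84610 at 6 h, and 0, 0 and 1 of them were called higher at the 3 times. Neutrophil markers also rose: their sum over 10 genes was 104.4 to 174 on the control arrays, 889.8 to 1236 at 1 h, 1553 to 2213 at 3 h and 1735 to 2679 at 6 h, with 5, 7 and 8 of 10 called higher. Their median log2 change was 1.62, 1.86 and 2.50 at 1, 3 and 6 h. T cell markers, 10 genes, summed to 213.8 to 391.2 on the control arrays, 280.8 to 317.9 at 1 h, 264.2 to 298.7 at 3 h and 377.8 to 471.6 at 6 h, with 0, 0 and 4 called higher. At each of the 3 times the T cell sums overlapped with those of the control arrays.

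Of 7 natural killer cell markers 0, 2 and 2 were higher at 1, 3 and 6 h, and their sums were 66.55 to 100.8 on the control arrays, 63.59 to 93.21 at 1 h, 121.8 to 135.9 at 3 h and 357.9 to 491.1 at 6 h. Kupffer cell and monocyte markers (11 genes) had 0 called at 1 h, 3 that fell by 3 h, and 4 that rose and 3 that fell by 6 h, with sums of 2086 to 2794 on the control arrays and 2369 to 2909, 1649 to 1908 and 1445 to 1904 at 1, 3 and 6 h. Sinusoidal endothelial markers (10 genes) had 0 called at 1 h, 2 that fell by 3 h, and 2 that rose and 4 that fell by 6 h, with sums of 1227 to 2634 on the control arrays and 2280 to 2577, 1498 to 1686 and 1626 to 1806 at 1, 3 and 6 h. Stellate cell markers (10 genes) had 0, 3 and 6 lower, with sums of 2954 to 3410 on the control arrays and 2448 to 3673, 1893 to 2470 and 1659 to 2067 at the 3 times. B cell and cholangiocyte markers had 0, 0 and 1 called higher each, and platelet and red cell markers 0, 2 and 3. Beside all these marker counts, 1.45% of all genes rose and 0.148% fell by 1 h. By 3 h 4.76% rose and 12.9% fell, and by 6 h 14.4% rose and 11.8% fell. No marker was at the floor on all arrays, and the part of these cells in the courses of the 10 genes was not tested.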

How the data were processed

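RNA of 12 mouse livers, 3 per group, was measured on Affymetrix whole-genome mouse arrays. The intensities deposited by the authors were linear signals. The submitters' processing notes name MAS5 5.0 and the study's methods name RMA, and since sorted values differed between arrays and were not logarithmic they were read as MAS5-like. No detection calls were used, and the number of arrays limits the precision.

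Values under the table's 20th percentile (3.044) were raised to it and log2 was taken. After 64 control probe sets were left out, 45037 were tested, of which 34945 had a single gene symbol, 932 had several and 9160 had none. Of the single symbols 34754 were updated through their Entrez ID and 191 were not matched. Of the members' probe sets 0 carried several symbols. A linear model with a mean for each of the 4 groups was fitted to all 12 arrays (limma 3.58.1, R 4.3.3), with Benjamini-Hochberg adjustment over all probe sets and a threshold of 0.05. The exact two-sided permutation test of 3 against 3 arrays cannot go below p = 0.1, so it was not used for calls. The fit was tested on simulated data.

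The members and the 20 gene lists (218 of 245 entries measured) were chosen with earlier results of these data known. Every member and probe set is named. Of a list other than cell markers up to 4 genes with the largest called changes could be named, and of each member up to 3 nearest genes, and other names are marked. Motifs were searched in RefSeq promoters. Egr1, Egr3 and Ier2 had no promoter used here, and a planned comparison of protein sequences was not run. Replicate numbers were not taken to pair arrays, since deviations of 18 same-numbered pairs correlated at -0.01 to 0.04 and those of 36 other pairs at -0.04 to 0.03. Alternatives were quantile normalization, centring, a pseudocount of 1, a floor at the 40th percentile, brighter probe sets, 1 probe set per gene, an intensity trend, a fit of only the groups compared, a replicate block, a change of at least 2-fold, and leaving out each array.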

Additional observations from a re-analysis of the deposited data

How the results depend on the processing

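Over 22 alternatives, 2635 of 2778 values of single probe sets stayed on their side of the threshold, 106 lost a call and 37 gained one. In 64 values the sign differed from the main one, none of them called under either setting, and 0 called values reversed. Counts of the 22 probe sets called moved as follows, and apart from probe sets that a setting left out, the cause was not tested. With quantile normalization 1 was lower at 1 h, and 2 were lower at 3 h against 1 h and at 6 h against 3 h. With arrays centred on their medians 1 was lower at 1 h, 0 at 3 h, and 2 at 3 h against 1 h and at 6 h against 3 h. A pseudocount of 1 gave 0 lower at 6 h against 3 h and 3 at 6 h against 1 h, a floor at the 40th percentile gave 1 higher at 6 h against 1 h, brighter probe sets gave 1 lower at 1 h, and 1 probe set per gene gave 0 higher at 3 h against 1 h and 1 at 6 h against 1 h. That last setting kept only the 10 main probe sets. It left out the second probe set of Egr3, which was called higher in both of these comparisons. Fitting only the groups compared gave 0 lower at 3 h, 0 higher and 2 lower at 3 h against 1 h, and 1 higher and 3 lower at 6 h against 1 h. A 2-fold minimum gave 0 lower at 3 h and 1 higher at 6 h against 1 h. With the replicate block 1 was lower at 1 h and 3 were lower at 6 h against 1 h, and no other count moved by over 1.5 times. The numbers do not pair the arrays.

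Leaving out 1 array gave 9 to 11 higher and 0 to 1 lower at 1 h (10 and 0 with all), 8 to 9 and 0 to 1 at 3 h (9 and 1), 11 to 13 and 0 to 0 at 6 h (13 and 0), 0 to 1 and 2 to 6 at 3 h against 1 h (1 and 4), 3 to 4 and 0 to 1 at 6 h against 3 h (3 and 1), and 1 to 3 and 2 to 6 at 6 h against 1 h (2 and 5). The Ier2 call at 3 h was lost without control replicate 1. At 3 h against 1 h, 2 were lower without replicate 1 or 2 at 1 h or replicate 1 or 2 at 3 h. At 6 h against 1 h, 2 were lower without replicate 1 at 1 h, and 3 without its replicate 2 or without replicate 3 at 6 h. Signals near the floor, as on the control arrays of Egr2, Egr3, Nr4a3 and Ier5, limit how far a fold can be read.

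Counts over all probe sets moved more. The deposited scale gave 579 higher and 115 lower at 1 h, against 466 and 193 after quantile normalization, 415 and 185 after centring, and 181 and 39 in a fit of those groups alone. At 3 h it gave 1700 and 4428, against 2738 and 2676 after quantile normalization and 2623 and 2066 after centring. At 3 h against 1 h the counts were 942 and 5782, against 1779 and 1556, 1762 and 1176, and 650 and 3139 under the same 3 settings, and 3501 were lower with a pseudocount of 1. At 6 h against 3 h they were 6445 and 1092, against 2754 and 2830 after quantile normalization and 1775 and 3397 after centring.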

Other observations

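Within a group, arrays differed in a common direction over these probe sets. At 1 h, replicate 3 was the lowest of the 3 arrays in 15 of the 22 probe sets, with a median deviation of -0.22 from the group mean on the log2 scale, and replicate 2 was the highest in 13 of them, with a median deviation of 0.15. At 3 h, replicate 1 was the lowest in 12 of the 20 probe sets whose arrays were not all equal (median deviation -0.19), and replicate 2 the highest in 12. At 6 h no array was the lowest or the highest in more than 9 of the 22. The median log2 signal over all probe sets was 4.24, 4.17 and 4.12 for replicates 1, 2 and 3 at 1 h, where replicate 3 was the lowest in both respects, and 3.88, 3.86 and 3.77 at 3 h, where replicate 1 was the lowest over the members and the highest over all probe sets.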
